A study of Mus musculus with 12 samples.

Results

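The transcripts described here were those that the authors' tables typed as newly assembled antisense RNAs of a named gene, that is, RNAs read from the strand opposite to an annotated host gene. Every row with the type novel_antisense was taken, without regard to its values, and was paired with the longest protein_coding row of the same gene name in the same table, called the sense row below. There were 363 such rows of 16687 in the siGSK3b table, 448 of 17394 in the L803mts table and 496 of 17864 in the ketamine table, 1307 of 51945 in all. They carried 673 host names, of which 189 were present in all 3 tables. A sense row was found for 262, 323 and 354 of them in the siGSK3b, L803mts and ketamine tables.

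The study sequenced poly-A selected, strand-specific RNA libraries of the hippocampus of C57BL/6 mice, a brain region of learning and mood regulation, after an siRNA or an inhibitor aimed at GSK3beta or after the antidepressant ketamine. GSK3beta is a kinase that phosphorylates beta-catenin and marks it for destruction. Each of the 4 groups had 3 libraries, and the labels do not say whether the libraries came from separate mice, so p-values measure the spread between these libraries. The siGSK3b group received 10 µg of an siRNA against GSK3beta, and the L803mts group 60 µg of the inhibitor peptide L803mts (spelled L808mts in the treatment protocol), both given into the nose (5 µL to each nostril) on alternate days over 3 days. The ketamine group received 10 mg/kg by intraperitoneal injection and was examined at 24 h. The control group received vehicle intranasally on the schedule of the siRNA and the peptide, so for ketamine the route and the drug cannot be told apart. No group carried a transgene or other allele in the labels, and the labels used here give no age. The same 3 control libraries stand in all 3 tables, each table was assembled and normalised on its own, and no result of 1 comparison is independent of the others. The siRNA's target was not lower in the row read for it. The Gsk3b protein_coding row (chromosome 16, 38243242 to 38247469 on NCBIM37) had 18.4, 19.3 and 18.9 FPKM in the libraries labelled siGSK3b, against 18.0, 17.3 and 17.8 FPKM in control libraries. Every library labelled siGSK3b was above every control library. The part of the gene that this row spans was not checked. The log2 fold change of the row was 0.09 (SE 0.09, limma adjusted p = 0.938 after Benjamini-Hochberg adjustment). The level of this row thus does not show the knockdown that the label names, and siGSK3b below means the libraries so labelled.

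Antisense RNAs arise from the DNA strand opposite to that of a gene and can overlap its promoter, introns, exons or end. Some are known to act on the gene they overlap, by blocking its transcription, by pairing with its RNA or by recruiting chromatin regulators, and others have no known role. In neurons the best studied case is Ube3a, whose paternal copy is silenced by a long antisense transcript that runs into the gene from its 3′ side, and imprinted gene clusters such as that of Kcnq1 also hold antisense RNAs. The tables name each antisense row only by its host, so no row could be matched to such a known RNA by identity.

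Sequences could be given for the hosts, not for the antisense RNAs, whose exons and strand are not in the tables. Promoters of 384 of the 673 host names were matched by symbol in RefSeq on GRCm38.p6, each a window of 300 bases that runs from 250 before to 50 after a transcription start. The tables use another build, NCBIM37, so the windows were not placed on the antisense rows. The 4 windows printed belong to hosts whose antisense and sense rows had the same locus limits and whose values are described below. Igf2 is shown because both of its rows were past the deposited FDR, with the 2 of its starts nearest the gene's 3′ end, Gprin1 because its antisense and sense means differed from control in opposite directions, and Hspa5 because its antisense level was close to its sense level. Capitals mark 3 promoter motifs found by an exact search of both strands: the TATA box TATAAA, the CCAAT box CCAAT and the GC box GGGCGG, which 13.6%, 37.4% and 35.7% of all 32851 promoter windows held.
Igf2, upstream of the 2 (chr7:142658755-142659054, minus strand): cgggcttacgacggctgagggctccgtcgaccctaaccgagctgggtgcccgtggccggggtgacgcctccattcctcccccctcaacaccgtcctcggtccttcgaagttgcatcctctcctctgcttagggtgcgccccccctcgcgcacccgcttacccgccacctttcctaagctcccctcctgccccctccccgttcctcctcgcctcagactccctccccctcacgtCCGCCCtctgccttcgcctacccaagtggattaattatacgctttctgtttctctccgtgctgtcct
Igf2, downstream of the 2 (chr7:142657447-142657746, minus strand): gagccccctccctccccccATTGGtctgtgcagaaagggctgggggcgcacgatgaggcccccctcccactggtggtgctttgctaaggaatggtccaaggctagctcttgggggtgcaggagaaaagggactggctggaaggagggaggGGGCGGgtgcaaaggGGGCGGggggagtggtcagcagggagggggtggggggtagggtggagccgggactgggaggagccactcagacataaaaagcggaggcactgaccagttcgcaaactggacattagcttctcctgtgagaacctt
Gprin1 (chr13:54749825-54750124, minus strand): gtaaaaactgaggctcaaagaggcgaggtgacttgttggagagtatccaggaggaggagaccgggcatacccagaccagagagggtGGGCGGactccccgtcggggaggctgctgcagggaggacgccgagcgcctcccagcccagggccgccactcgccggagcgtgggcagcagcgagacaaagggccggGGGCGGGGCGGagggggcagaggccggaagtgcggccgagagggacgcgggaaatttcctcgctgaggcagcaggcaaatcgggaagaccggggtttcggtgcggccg
Hspa5 (chr2:34771840-34772139, plus strand): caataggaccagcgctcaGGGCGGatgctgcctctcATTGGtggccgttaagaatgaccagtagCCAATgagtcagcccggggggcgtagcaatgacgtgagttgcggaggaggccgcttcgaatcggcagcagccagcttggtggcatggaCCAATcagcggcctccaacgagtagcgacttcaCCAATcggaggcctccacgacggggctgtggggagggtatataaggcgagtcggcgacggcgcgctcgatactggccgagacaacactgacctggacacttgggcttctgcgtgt
None of the 4 windows held TATAAA. The upstream Igf2 window held 1 GC box and no CCAAT, the downstream one 2 GC boxes and 1 CCAAT, Gprin1 3 GC boxes (of which 2 share a base), and Hspa5 4 CCAAT and 1 GC box. CG dinucleotides numbered 24, 7, 27 and 25 in the order printed, against a median of 7 over all windows. A match describes the letters only.

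Of the hosts, 5 were microRNA genes, and their mature sequences are shown because the host of these rows is itself a small regulatory RNA. Capitals mark the seed, bases 2 to 8, through which a microRNA recognises its targets. The 8 mature sequences, from RefSeq on GRCm38.p6, had 8 different seeds.
mmu-miR-3083-3p (chr17:26948058-26948079, minus strand): uCCGAAACauucccagccuuua
mmu-miR-3083-5p (chr17:26948093-26948114, minus strand): aGGCUGGGaauauuucagagau
mmu-miR-344c-3p (chr7:61837323-61837345, minus strand): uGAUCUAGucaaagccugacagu
mmu-miR-344c-5p (chr7:61837363-61837385, minus strand): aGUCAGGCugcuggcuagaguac
mmu-miR-539-5p (chr12:109728136-109728157, plus strand): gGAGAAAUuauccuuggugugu
mmu-miR-551b-5p (chr3:29416840-29416862, plus strand): gAAAUCAAgcuugggugagaccu
mmu-miR-551b-3p (chr3:29416879-29416899, plus strand): gCGACCCAuacuugguuucag
mmu-miR-690 (chr16:28599940-28599961, minus strand): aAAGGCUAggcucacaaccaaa
The antisense rows of these hosts were long loci of a poly-A library and do not measure the microRNAs. That of Mir3083 had 18.9, 24.8 and 19.0 FPKM in siGSK3b libraries, against 16.2, 24.9 and 29.0 FPKM in control libraries, where FPKM is the number of sequenced fragments scaled by transcript length and by the mapped fragments of the library. That of Mir690, present as an antisense row in the L803mts table, had 18.9, 11.1 and 11.0 FPKM in L803mts libraries, against 14.9, 6.75 and 11.2 FPKM in control libraries. In both the groups overlapped, and no row with a microRNA host had an unadjusted p under 0.05 below.

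Most antisense rows were expressed at low levels. Their median control level was 5.08, 4.56 and 4.27 FPKM in the siGSK3b, L803mts and ketamine tables, below the 18.0, 17.0 and 16.8 FPKM of their sense partners and above the 3.11, 2.95 and 2.99 FPKM of the 97, 109 and 124 rows typed as annotated antisense genes. Over pairs the median antisense level was 30.5%, 23.3% and 24.0% of the sense level. Antisense exceeded sense in 53, 73 and 76 pairs and was below 1% of it in 15, 16 and 20. Across pairs, log2(FPKM + 1) of antisense and sense had a Pearson r of 0.40, 0.32 and 0.33, a description over 262, 323 and 354 pairs that share libraries and in part hosts.

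**Figure D1:**
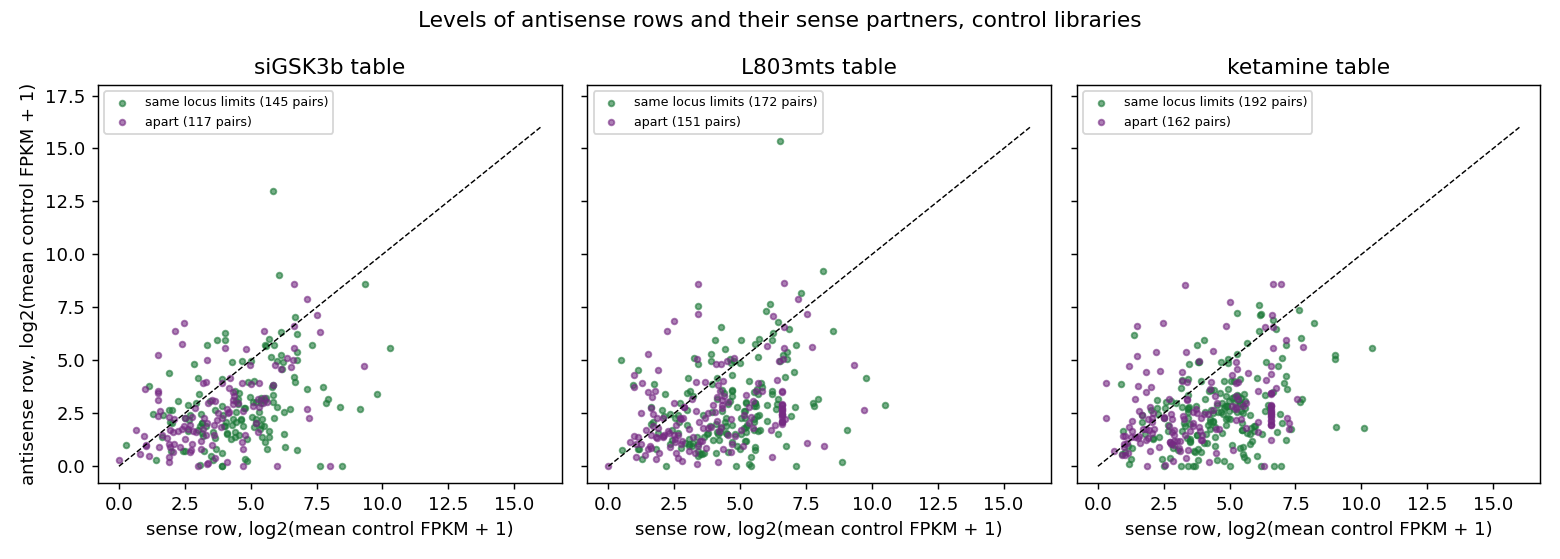
Mean control level of each antisense row (y axis) against its sense row (x axis), both as log2(FPKM + 1), for 262, 323 and 354 pairs in the siGSK3b, L803mts and ketamine tables; green points are pairs with the same locus limits, purple points pairs apart, and the dashed line marks equal levels. Most points lie below the line, and 53, 73 and 76 lie above it.

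In their position the pairs fell into 2 kinds. In 145, 172 and 192 pairs the antisense and sense rows had identical locus limits, so the extent of the antisense RNA itself is not known there. In the other 117, 151 and 162 pairs the rows lay apart, 62, 89 and 99 with the antisense row on the 5′ side of the sense row and 45, 47 and 50 on its 3′ side, by the strand that GENCODE M21 gives the host. Of those on the 5′ side, 58, 86 and 94 were separated from the sense row by less than the annotated host length that the sense row left uncovered. Sense rows were often pieces of their gene: 98 of 235, 130 of 290 and 138 of 328 with a matched length spanned under 50% of it. The median antisense-to-sense percentage was 38.1%, 32.3% and 37.9% in pairs apart, and 20.7%, 19.1% and 19.3% in pairs with the same limits.

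The highest antisense levels lay far above this range. The row of Nptxr, the neuronal pentraxin receptor of synapses (chromosome 15, 79616666 to 79617704 on NCBIM37), had 2175, 2305 and 1907 FPKM in siGSK3b libraries, against 1565, 1473 and 1839 FPKM in control libraries. These groups did not overlap, with a log2 fold change of 0.39 (SE 0.13) and an adjusted p of 0.826 in limma after Benjamini-Hochberg adjustment. The same limits gave 1584, 1824 and 1999 FPKM in ketamine libraries, against 1557, 1460 and 1844 FPKM in control libraries, and 725, 1451 and 1910 FPKM in L803mts libraries, against 1584, 1504 and 1884 FPKM in control libraries, and both overlapped. The row of Myo3a, a myosin of sensory hair cells, had 9403, 8748 and 8818 FPKM in siGSK3b libraries, against 8377, 8645 and 7659 FPKM in control libraries, beside a sense row of 39.6 to 73.3 FPKM. For some hosts the level depended on the table: Gm17312 had 144122, 45589 and 70111 FPKM in L803mts libraries, against 25352, 31621 and 66925 FPKM in control libraries, while the siGSK3b table gave the same limits and the same control libraries 133, 149 and 110 FPKM. Its level is therefore uncertain.

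This dependence was measured over 162 hosts with 1 antisense row in each table. In the 25 whose limits were equal in all 3 tables, the highest of the 3 control means was a median of 1.02 times the lowest, and 3 hosts differed by over 2 times. In the other 137 the median was 1.20 times, and 27 differed by over 2 times. Levels are therefore compared below only within a table.

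Each treatment was then set against control with limma on log2(FPKM + 1) over all tested loci of its table, 332 of 363, 421 of 448 and 457 of 496 antisense rows among them. No antisense row passed an adjusted p of 0.05 in the siGSK3b, L803mts or ketamine comparison, where 0.00612%, 0% and 0.0114% of all tested loci did. The lowest adjusted p among antisense rows was 0.735 for siGSK3b, 0.757 for L803mts and 0.443 for ketamine. At an unadjusted limma p under 0.05 there were 19, 26 and 29 antisense rows, which is 5.72%, 6.18% and 6.35%, beside 5.83%, 6.18% and 6.13% of all tested loci. Groups did not overlap in 30, 44 and 47 antisense rows, 9.04%, 10.5% and 10.3%, beside 10.6%, 12.5% and 11.5% of all tested loci. By all 3 counts the antisense rows stood near the background. In the authors' deposited tables, whose test is Cuffdiff's, 0, 2 and 3 antisense rows had an FDR of at most 0.05. That is 0%, 0.475% and 0.656%, beside 0.508%, 0.65% and 0.439% of all tested loci. The called antisense rows were 1 higher and 1 lower with L803mts and 3 higher with ketamine. All tested loci gave 0.574% higher and 0.0761% lower with L803mts, 0.308% and 0.131% with ketamine, and 0.281% and 0.226% with siGSK3b. The deposited p in the authors' deposited tables was under 0.05 for 6, 22 and 15 antisense rows. That is 1.81%, 5.23% and 3.28%, below the 5.6%, 7.17% and 5.97% of all tested loci in each table.

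Of the rows at an unadjusted limma p under 0.05, 13 were higher and 6 lower with siGSK3b, 11 higher and 15 lower with L803mts, and 23 higher and 6 lower with ketamine. All tested loci gave 2.99% higher and 2.84% lower, 3.61% and 2.57%, and 2.98% and 3.16% in the same order. Of the 23 rows higher with ketamine, 7 belong to the single host 2610005L07Rik, and over hosts with up to 3 rows each there were 16 higher and 6 lower of 396. Over such hosts siGSK3b gave 12 higher and 6 lower of 313, and L803mts 11 and 11 of 382. By this count the L803mts excess of lower rows lay in hosts with over 3 rows. By other measures the same 382 rows still leaned lower with L803mts. Their groups did not overlap in 15 higher and 27 lower rows, 40.3% had a mean above control, and their median log2 fold change was -0.07. Groups that did not overlap were higher in 21 and lower in 9 rows with siGSK3b (5.72% and 4.84% of all tested loci), 15 and 29 with L803mts (5.86% and 6.67%), and 30 and 17 with ketamine (5.28% and 6.19%). The mean lay above control in 57.5%, 39.9% and 57.1% of antisense rows, against 51.9%, 45.9% and 46.9% of all tested loci. The median log2 fold change of the antisense rows was 0.03 with siGSK3b, -0.07 with L803mts and 0.03 with ketamine, against 0.01, -0.02 and -0.01 over all tested loci. Without control replicate 3 the medians of siGSK3b and ketamine fell below 0, at -0.0096 and -0.0032. Rows typed novel_lincRNA, newly assembled transcripts between genes, leaned the same ways, with medians of 0.05, -0.09 and 0.04. Of 1027, 1204 and 1168 such rows tested, 70 were higher and 19 lower at an unadjusted limma p under 0.05 with siGSK3b, 18 and 47 with L803mts, and 59 and 26 with ketamine. The 95, 104 and 120 annotated antisense rows tested had medians of -0.0025, 0.0002 and -0.03. At the same threshold 3 of them were higher and 1 lower with siGSK3b, 6 and 5 with L803mts, and 3 and 6 with ketamine. Pseudogene rows had medians of 0.02, -0.07 and 0.05, with 11 higher and 9 lower, 16 and 4, and 67 and 12. Since the 3 comparisons share their controls, these directions are not independent of each other.

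Of 38 imprinted genes listed, 4, 4 and 5 hosted antisense rows, with 5, 5 and 4 rows tested. At an unadjusted limma p under 0.05, 1 row was higher and 0 lower with siGSK3b, 1 higher and 1 lower with L803mts, and 0 of either with ketamine, where all tested loci gave 2.99% higher and 2.84% lower, 3.61% and 2.57%, and 2.98% and 3.16%. Ube3a, the E3 ubiquitin ligase lost in Angelman syndrome, had an antisense row on the 3′ side of the sense row in every table (chromosome 7, 66484583 to 66563476 in the siGSK3b table). The gap to the sense row was 166 bases there, and the sense row itself spanned 1231 bases of a gene of 82787 bases in GENCODE M21. The antisense row spanned 78893 bases, so most of it may lie within the gene rather than beyond its end, which was not checked. The Ube3a antisense row had 27.2, 22.8 and 32.8 FPKM in siGSK3b libraries, against 34.0, 34.2 and 27.4 FPKM in control libraries. Its sense row had 10.2, 8.34 and 8.52 FPKM in siGSK3b libraries, against 9.29, 9.47 and 8.38 FPKM in control libraries. The antisense row was thus above this piece of the gene in each of the 6 libraries, and the level of the whole sense RNA was not measured. The treated and control libraries overlapped in both rows. With L803mts the antisense row had 25.5, 32.3 and 22.8 FPKM, against 34.8, 35.2 and 28.5 FPKM in control libraries. With ketamine it had 42.1, 46.4 and 43.0 FPKM, against 45.5, 42.9 and 33.4 FPKM in control libraries. The log2 fold changes of -0.21 (SE 0.15), -0.29 (SE 0.15) and 0.12 (SE 0.12) had limma adjusted p-values of 0.93, 0.757 and 0.922 after Benjamini-Hochberg adjustment. In control means the antisense row was at 352%, 358% and 449% of the level of the paired sense row in the siGSK3b, L803mts and ketamine tables.

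**Figure D2:**
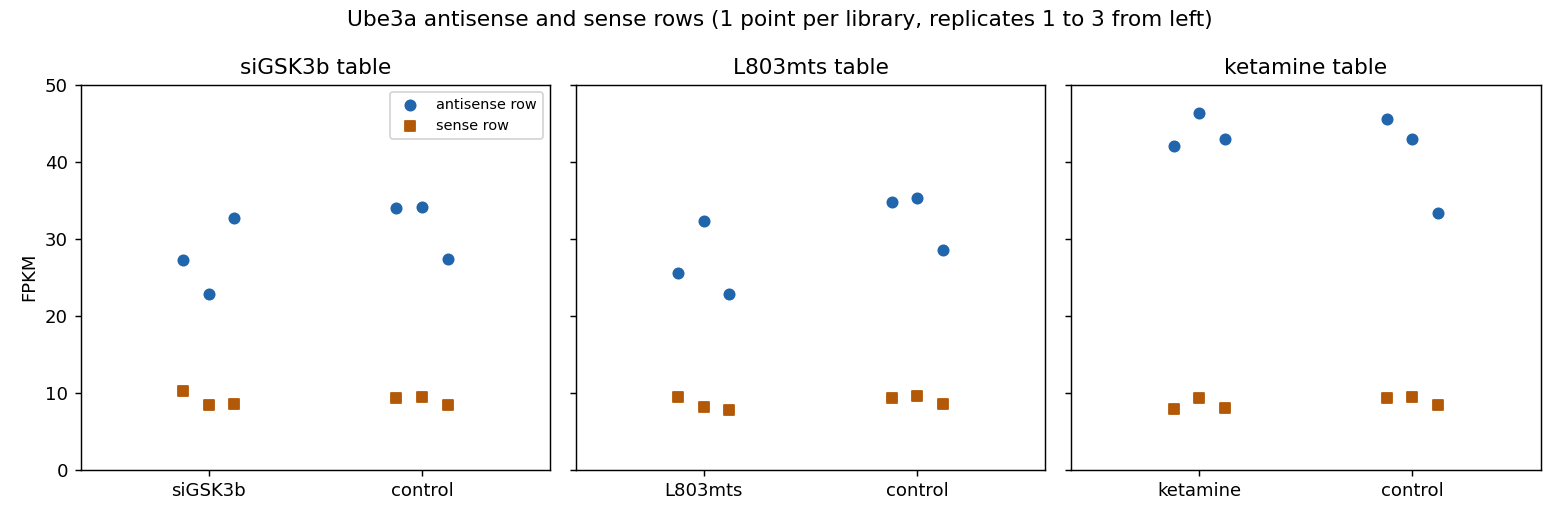
FPKM (y axis) of the Ube3a antisense row (circles) and sense row (squares), 1 point per library, treated libraries left of the control libraries in each of the 3 tables. The antisense row lies above the sense row in every library shown, from 22.8 to 46.4 FPKM against 7.80 to 10.2 FPKM. In the siGSK3b table the sense row spans 1231 bases of the gene and the antisense row 78893 bases.

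Kcnq1, a potassium channel gene in an imprinted cluster, had 2 antisense rows in the siGSK3b table with the limits of the sense row (chromosome 7, 150287925 to 150482429). The higher one had 28.6, 28.7 and 32.3 FPKM in siGSK3b libraries, against 17.7, 28.0 and 15.0 FPKM in control libraries. Every siGSK3b library was above every control library, control replicate 2 being the nearest, and the log2 fold change was 0.58 (SE 0.21, limma adjusted p = 0.848 after Benjamini-Hochberg adjustment). The sense row had 3.09, 2.40 and 2.83 FPKM in siGSK3b libraries, against 2.59, 3.14 and 2.50 FPKM in control libraries, and these overlapped. Rows of other limits gave 12.5, 15.0 and 10.9 FPKM in L803mts libraries, against 10.6, 14.7 and 8.52 FPKM in control libraries, and 8.28, 7.39 and 7.42 FPKM in ketamine libraries, against 8.69, 7.35 and 8.02 FPKM in control libraries.

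Trappc9, a subunit of a vesicle tethering complex that is imprinted in mouse brain, had an antisense row at 2.24, 2.61 and 1.24 FPKM in L803mts libraries, against 3.30, 4.75 and 3.60 FPKM in control libraries. Its sense row, a 1258 base piece of the gene, had 4.22, 2.40 and 4.65 FPKM in L803mts libraries, against 2.55, 2.23 and 3.00 FPKM in control libraries. The antisense groups did not overlap and the sense groups did. The antisense-to-sense ratio had a log2 difference of -1.08 (limma unadjusted p = 0.0134, adjusted p = 0.768 after Benjamini-Hochberg adjustment). With ketamine the Trappc9 antisense row had 2.27, 3.26 and 3.66 FPKM, against 3.28, 4.66 and 3.08 FPKM in control libraries. The Grb10 antisense row, at an imprinted adaptor of insulin signalling, had 7.02, 5.02 and 8.22 FPKM in siGSK3b libraries, against 5.29, 9.69 and 4.75 FPKM in control libraries.

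Igf2, the imprinted gene of insulin-like growth factor 2, carried an antisense row in the L803mts table (chromosome 7, 149836674 to 149844312), and its promoter windows are printed above. The Igf2 antisense row had 10.2, 11.9 and 19.1 FPKM in L803mts libraries, against 10.5, 4.09 and 3.14 FPKM in control libraries. Its sense row had 3.12, 4.12 and 7.06 FPKM in L803mts libraries, against 3.38, 1.69 and 1.06 FPKM in control libraries. Both rows were highest in L803mts replicate 3 and lowest in control replicate 3, and control replicate 1 lay within the L803mts range. The authors' deposited table gave the antisense row a log2 fold change of 1.22 with an FDR of 0.0119, and the sense row 1.22 with an FDR of 0.0199. In limma the antisense log2 fold change was 1.20 (SE 0.38, adjusted p = 0.757 after Benjamini-Hochberg adjustment), and without control replicate 1 it was 1.64 (adjusted p = 0.083). Over the 6 single libraries left out in turn, the adjusted p lay between 0.083 and 0.965.

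Markers of choroid plexus, the secretory epithelium of the ventricles, also differed between these libraries, though not in the same order. Their mean was highest in control replicate 1, and the Igf2 rows were highest in L803mts replicate 3. The mean log2(FPKM + 1) of the choroid plexus list, 23 of 24 genes measured and 1 of them listed at 0 in a library, was 3.79, 4.34 and 4.24 in L803mts libraries, against 4.39, 2.07 and 1.43 in control libraries. The meningeal list, with 18 of 18 genes measured, 1 listed at 0 in a library and Igf2 among them, had 3.33, 3.42 and 3.35 in L803mts libraries, against 2.94, 2.86 and 2.75 in control libraries. The part of either in the Igf2 rows was not tested, and in bulk tissue fewer cells of a type and less RNA per cell cannot be told apart. The choroid plexus values were 4.45, 4.57 and 4.13 in siGSK3b libraries, against 4.32, 2.10 and 1.50 in control libraries, and 4.12, 4.25 and 2.38 in ketamine libraries, against 4.40, 2.06 and 1.44 in control libraries. The meningeal values went the other way with siGSK3b (17 genes measured), at 3.41, 3.45 and 3.44, against 3.63, 3.48 and 3.47 in control libraries, without overlap. With ketamine (16 genes measured) they overlapped, at 3.89, 4.17 and 2.97, against 3.50, 3.32 and 3.35 in control libraries. Of 12 markers of hippocampal neurons 11 were measured in each table and none was listed at 0. No measured striatum marker was listed at 0 in any table either, so detection alone does not tell these tissues apart. Of 12 striatum markers 9 were measured in the L803mts table, none listed at 0, with a mean log2(FPKM + 1) of 3.99, 3.30 and 3.37 in L803mts libraries, against 3.23, 3.04 and 3.07 in control libraries, without overlap. The mean log2(FPKM + 1) of the 8 oligodendrocyte markers, none listed at 0, was lower in every treated library of each table: 5.89, 5.85 and 5.92 in siGSK3b libraries, against 6.20, 6.16 and 6.11 in control libraries, 6.25, 6.16 and 6.30 in L803mts libraries, against 6.41, 6.44 and 6.32 in control libraries, and 4.39, 4.31 and 4.32 in ketamine libraries, against 4.59, 4.65 and 4.51 in control libraries. Their summed FPKM overlapped with siGSK3b and L803mts, where treated replicate 3 had 1443 and 1456, against 1392 and 1388 in control replicate 3. With ketamine the sums did not overlap. The microglia list had 3.54, 3.59 and 3.54 in L803mts libraries, against 3.69, 3.61 and 3.71 in control libraries. It overlapped between the groups in the siGSK3b and ketamine tables. The part of these shifts in the antisense differences was not tested.

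Htr2c, the serotonin 2C receptor gene that choroid plexus epithelium expresses strongly, was chosen after its values were seen. It had 2 antisense rows in the ketamine table with the limits of the sense row. The first had 17.3, 26.7 and 1.17 FPKM in ketamine libraries, against 19.1, 5.00 and 1.02 FPKM in control libraries. The second had 14.2, 10.3 and 11.8 FPKM in ketamine libraries, against 15.1 FPKM in control replicate 1 and values that round to 0 in control replicates 2 and 3. The sense row had 66.2, 61.0 and 24.9 FPKM in ketamine libraries, against 79.8, 24.0 and 23.3 FPKM in control libraries. Control replicate 1 was thus high in all 3 rows, as it was in the choroid plexus list. In ketamine replicate 3 that list was low, at 2.38 against 4.12 and 4.25 in the other ketamine libraries. The first antisense row and the sense row were low there too, at 1.17 and 24.9 FPKM, and the second antisense row was not, at 11.8 FPKM. The part of choroid plexus in these rows was not tested. Without control replicate 1 the second row passed limma, with a log2 fold change of 3.70 (adjusted p = 0.00276 after Benjamini-Hochberg adjustment), and with it the log2 fold change was 2.37 (SE 0.98) and the adjusted p 0.803.

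Among hosts that code for glutamate receptors, Grik2, a kainate receptor subunit, had an antisense row at 15.6, 14.9 and 15.7 FPKM in siGSK3b libraries, against 16.8, 14.7 and 13.3 FPKM in control libraries. Gria4, an AMPA receptor subunit, had 10.7, 8.72 and 10.6 FPKM in siGSK3b libraries, against 13.3, 12.7 and 10.8 FPKM in control libraries. The Gria4 groups did not overlap, with a log2 fold change of -0.27 (SE 0.13, limma adjusted p = 0.883 after Benjamini-Hochberg adjustment). The Gria4 sense row was also lower without overlap, at 50.2, 46.1 and 48.9 FPKM, against 57.3, 54.0 and 52.5 FPKM in control libraries. The ratio to sense differed by -0.10 on the log2 scale (limma adjusted p = 0.881). With L803mts the Gria4 antisense groups overlapped, at 12.7, 13.4 and 7.68 FPKM, against 13.4, 12.9 and 11.0 FPKM in control libraries. Grm7, a metabotropic glutamate receptor, had 8.58, 9.89 and 8.75 FPKM in L803mts libraries, against 9.13, 10.9 and 9.12 FPKM in control libraries.

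The host 2610005L07Rik, on chromosome 8, had 14, 14 and 18 antisense rows in the siGSK3b, L803mts and ketamine tables and no protein_coding row to pair with. With ketamine, 17 of the 18 rows shared the limits 19888267 to 20017500, and 1 lay at 19863297 to 19865851. All 18 had a higher mean with ketamine, with a median log2 fold change of 0.35, and 17 or 18 were higher when any 1 library was left out. The groups did not overlap in 8 of the 18, and 7 had an unadjusted limma p under 0.05, beside 11.5% and 6.13% of all tested loci. As 17 of these rows share their limits, they are not independent observations. The counts describe 1 host, which was looked at after its values were seen. The median over the 18 rows lay between 6.68 and 7.49 FPKM in ketamine libraries, against 6.01, 6.96 and 4.41 FPKM in control libraries, so the medians overlapped at control replicate 2. With siGSK3b 9 rows were higher and 5 lower, with a median log2 fold change of 0.07, and with L803mts 7 were higher and 7 lower, with a median of 0.00.

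**Figure D3:**
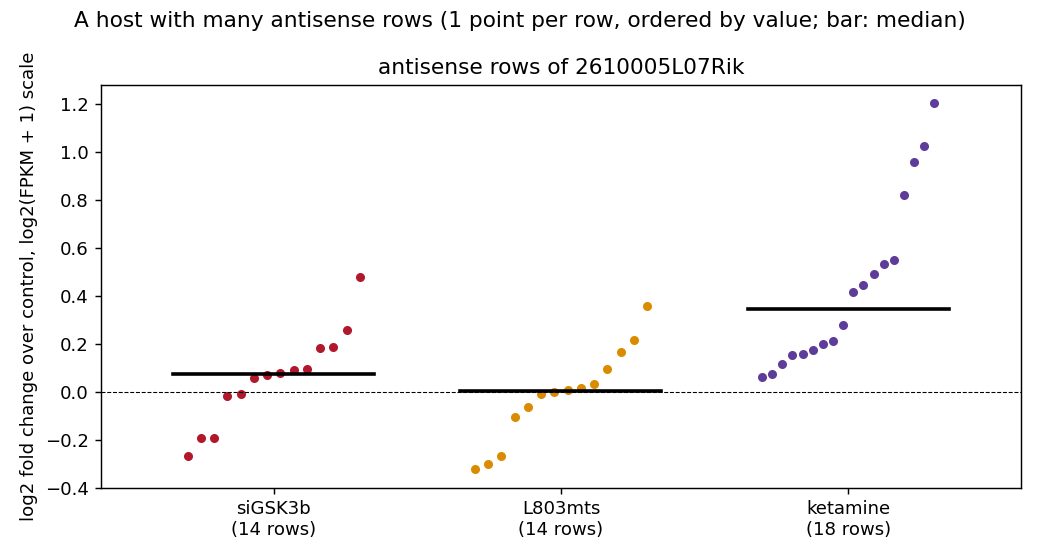
Log2 fold change over control on the log2(FPKM + 1) scale (y axis) of every tested antisense row of 2610005L07Rik, in order of value within each table; bars mark medians. The median is 0.07 with siGSK3b, 0.00 with L803mts and 0.35 with ketamine.

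The 2610005L07Rik row at 19863297 to 19865851 had 15.9, 14.6 and 12.7 FPKM in ketamine libraries, against 6.70, 10.3 and 4.64 FPKM in control libraries, with no overlap. The authors' deposited table gave it a log2 fold change of 0.99 with an FDR of 0.0157, and limma 0.96 (SE 0.24, adjusted p = 0.638 after Benjamini-Hochberg adjustment). The lowest limma p of any antisense row belonged to another row of this host, at 2.02, 3.12 and 2.80 FPKM in ketamine libraries, against 0.879, 0.492 and 0.379 FPKM in control libraries. Its log2 fold change was 1.20 (SE 0.20), with an unadjusted p of 0.000364 and an adjusted p of 0.443. Rows with the same limits and host may share reads, so the values of single rows here are uncertain.

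Ketamine had 2 further antisense rows past the deposited FDR. The row of 7SK (chromosome 3, 124478273 to 124646932), a name shared by several loci of the small nuclear RNA that holds back transcription elongation, had 117, 126 and 110 FPKM in ketamine libraries, against 61.1, 104 and 57.9 FPKM in control libraries. The groups did not overlap, and the authors' deposited table gave a log2 fold change of 0.66 with an FDR of 0.0361. In limma it was 0.71 (SE 0.21, adjusted p = 0.692 after Benjamini-Hochberg adjustment), and without control replicate 2 it was 0.97 and passed, with an adjusted p of 0.0394. Loci of this name may be near-identical copies that share reads, so the level is uncertain. The same limits had 69.0, 61.1 and 95.7 FPKM in siGSK3b libraries, against 61.2, 104 and 57.7 FPKM in control libraries, and 41.4, 98.3 and 67.0 FPKM in L803mts libraries, against 61.7, 106 and 58.7 FPKM in control libraries. The row of Gm7697, a predicted gene (chromosome 8, 71987634 to 72058162), had 3.32, 2.55 and 1.89 FPKM in ketamine libraries, against 0.752, 2.03 and 0.237 FPKM in control libraries, and these overlapped. The authors' deposited table gave it a log2 fold change of 1.36 with an FDR of 0.0258, and limma 0.92 (SE 0.33, adjusted p = 0.788 after Benjamini-Hochberg adjustment).

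**Figure D4:**
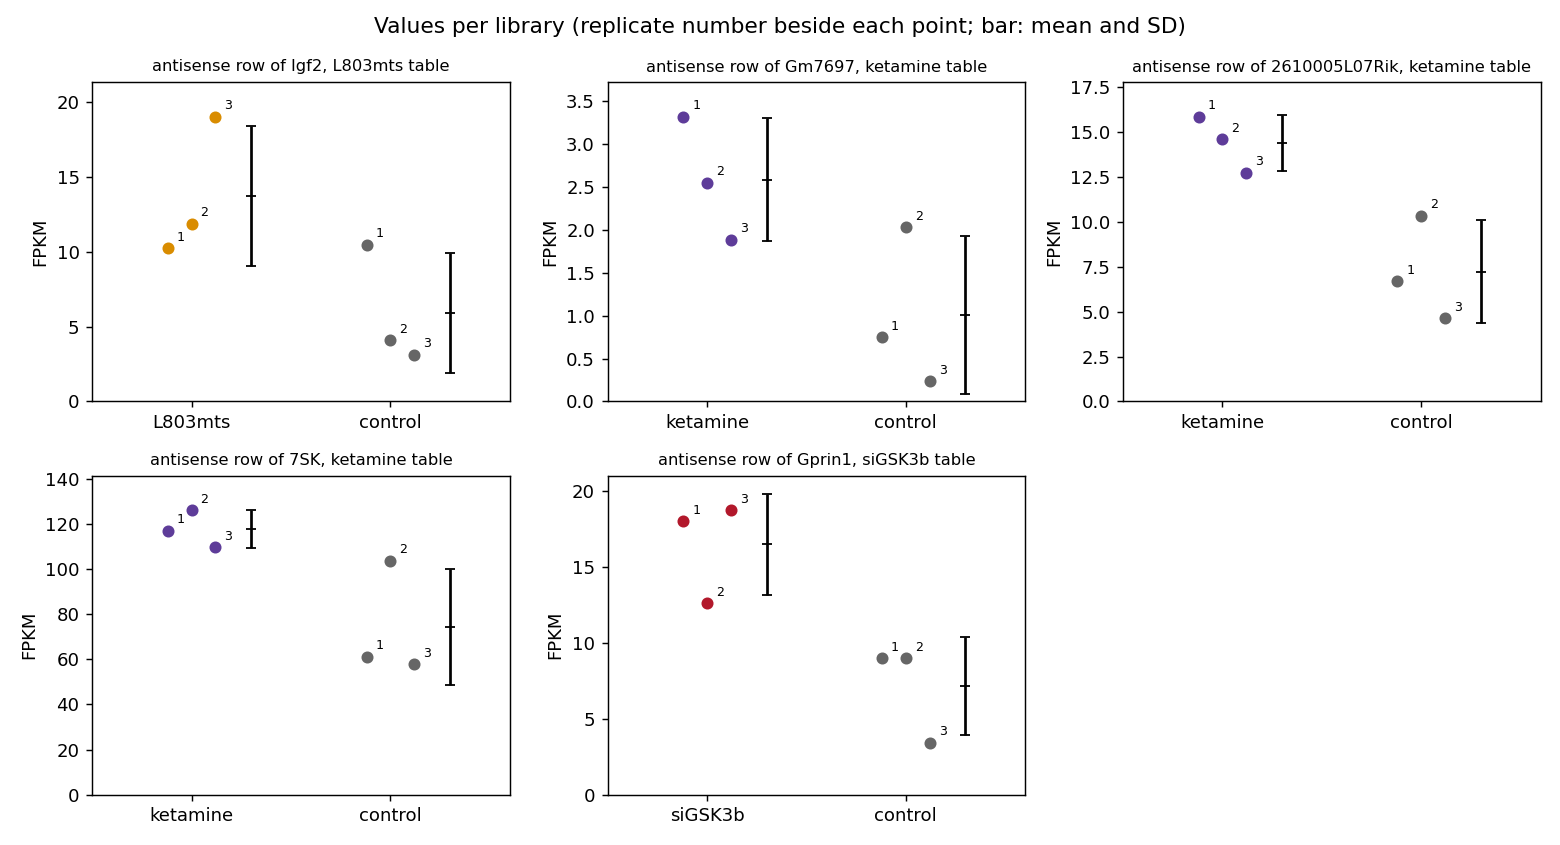
FPKM per library (y axis) of 4 antisense rows past the deposited FDR (Igf2, Gm7697, 2610005L07Rik and 7SK) and of the Gprin1 row in the siGSK3b table, treated libraries left of control libraries, replicate numbers beside the points and bars for mean and SD (3 libraries per group). Control replicate 1 of Igf2, at 10.5 FPKM, and control replicate 2 of 7SK, at 104 FPKM, stand above the other control libraries.

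Gprin1, a neuronal protein that binds G proteins and promotes neurite growth, was first in absolute log2 fold change among siGSK3b rows of at least 1 FPKM whose groups did not overlap. Its antisense row (chromosome 13, 54839760 to 54850966) had 18.0, 12.6 and 18.8 FPKM in siGSK3b libraries, against 8.98, 9.01 and 3.43 FPKM in control libraries. The sense row had 22.8, 30.9 and 20.6 FPKM in siGSK3b libraries, against 26.8, 30.0 and 41.0 FPKM in control libraries, and these overlapped. The antisense log2 fold change was 1.18 (SE 0.32, limma adjusted p = 0.754 after Benjamini-Hochberg adjustment) and the ratio to sense differed by 1.56 (adjusted p = 0.476). Dkk3, of a family of secreted WNT antagonists, was the only host with a tested antisense row in any table among 44 listed genes of GSK3 and WNT signalling. It had 101, 90.9 and 102 FPKM in siGSK3b libraries, against 78.9, 83.6 and 87.5 FPKM in control libraries, with no overlap and a log2 fold change of 0.23 (SE 0.08, limma adjusted p = 0.848 after Benjamini-Hochberg adjustment). Its sense row overlapped between the groups, at 51.0, 35.5 and 42.9 FPKM in siGSK3b libraries, against 40.1, 46.3 and 46.9 FPKM in control libraries.

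With L803mts the antisense row of Fam53c had 1.93, 1.78 and 2.71 FPKM, against 0.548, 0.812 and 1.17 FPKM in control libraries, and its sense row had 4.03, 3.03 and 9.40 FPKM, against 2.13, 1.30 and 2.88 FPKM in control libraries. Neither row overlapped between the groups. In limma the log2 fold changes were 0.77 (SE 0.21) for antisense and 0.97 (SE 0.35) for sense, both with an adjusted p of 0.757 after Benjamini-Hochberg adjustment. The authors' deposited table gave the sense row 1.38 with an FDR of 0.0119, and the antisense row 1.34 with an FDR of 0.610. Meis2, a homeobox transcription factor, had an antisense row at 3.40, 2.75 and 2.51 FPKM in L803mts libraries, against 1.94, 2.07 and 1.71 FPKM in control libraries. These did not overlap, with a log2 fold change of 0.41 (SE 0.17, limma adjusted p = 0.757 after Benjamini-Hochberg adjustment). Cask, a synaptic scaffold kinase chosen after its values were seen, had the lowest limma p of the antisense rows with L803mts, 0.0047 (adjusted p = 0.757 after Benjamini-Hochberg adjustment). Its antisense row had 4.97, 7.57 and 5.93 FPKM in L803mts libraries, against 9.99, 10.6 and 9.44 FPKM in control libraries, while its sense row had 21.4, 20.0 and 18.1 FPKM, against 20.1, 19.3 and 20.3 FPKM in control libraries. The antisense groups of Cask were apart and the sense groups were not.

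With ketamine the antisense row of Gm5611, a predicted gene, had 11.9, 11.7 and 12.8 FPKM, against 5.77, 7.38 and 4.41 FPKM in control libraries, with no overlap and a log2 fold change of 0.96 (SE 0.17, limma adjusted p = 0.488 after Benjamini-Hochberg adjustment). Cd47, the cell surface signal that restrains phagocytosis, was chosen after its values were seen. Among the pairs of the ketamine table only, it had the lowest limma p for the ratio. Its antisense row had 30.6, 24.4 and 30.9 FPKM in ketamine libraries, against 18.5, 22.2 and 20.3 FPKM in control libraries, and its sense row had 49.0, 43.3 and 55.9 FPKM, against 48.0, 50.4 and 53.6 FPKM in control libraries. The antisense groups were apart and the sense groups overlapped. The ratio differed by 0.51 on the log2 scale (SE 0.12, limma adjusted p = 0.843 after Benjamini-Hochberg adjustment).

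Of 44 listed genes with a known antisense RNA, 1, 1 and 5 hosted an antisense row, and none had an unadjusted limma p under 0.05. Hspa5, the chaperone BiP of the endoplasmic reticulum, was one with ketamine. Its antisense row in the ketamine table had 276, 214 and 154 FPKM in ketamine libraries, against 213, 164 and 121 FPKM in control libraries. The sense row had 312, 204 and 160 FPKM in ketamine libraries, against 257, 183 and 158 FPKM in control libraries. In each group both rows were highest in replicate 1 and lowest in replicate 3, and the groups overlapped (log2 fold change 0.36, SE 0.25, for antisense). Pou3f3, a transcription factor of neural development, had an antisense row at 31.8, 60.2 and 42.9 FPKM in ketamine libraries, against 37.3, 56.0 and 29.5 FPKM in control libraries. Among activity-induced genes, Arc, which shapes synapses, had an antisense row at 19.0, 10.9 and 9.11 FPKM in ketamine libraries, against 8.50, 20.7 and 16.3 FPKM in control libraries, and its sense row had 14.1, 7.74 and 7.38 FPKM, against 11.8, 12.3 and 18.3 FPKM in control libraries.

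For all pairs, the antisense row was then set against its sense row. No pair passed an adjusted p of 0.05 for a change of the antisense-to-sense ratio in limma, of 234 tested with siGSK3b, 302 with L803mts and 324 with ketamine, and over all 1679, 1867 and 2176 rows with a partner of the same name 0% passed. At an unadjusted limma p under 0.05 there were 18, 18 and 20 pairs, 7.69%, 5.96% and 6.17%, beside 7.03%, 5.95% and 5.79% of all such rows. Antisense and sense differed from control in the same direction in 55.6% of pairs with siGSK3b, 64.2% with L803mts and 47.2% with ketamine, where other rows that share a name with a protein_coding row gave 54.4%, 58.5% and 53.3%. The ketamine share was 50.6% to 53.7% when any 1 library was left out and 50.9% with each library centred on its median, so its place below 50% rests on the full set of libraries as deposited. With ketamine 114 of 324 pairs had antisense higher and sense lower, 57 the reverse, 72 both higher and 81 both lower. With L803mts 120 of 302 were both lower, 74 both higher, 50 antisense higher and sense lower, and 58 the reverse. The median log2 fold change was 0.03 over antisense rows and -0.03 over sense partners with ketamine, and -0.07 and -0.02 with L803mts. Class sizes thus also reflect where each kind of row leaned, and were not compared with those that these leans alone would give. The log2 fold changes had a Pearson r of 0.06, 0.36 and 0.08 over pairs, and 0.05, 0.22 and 0.12 over the other rows, as a description of points that share libraries. Over hosts with up to 3 antisense rows the L803mts value was 0.32.

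**Figure D5:**
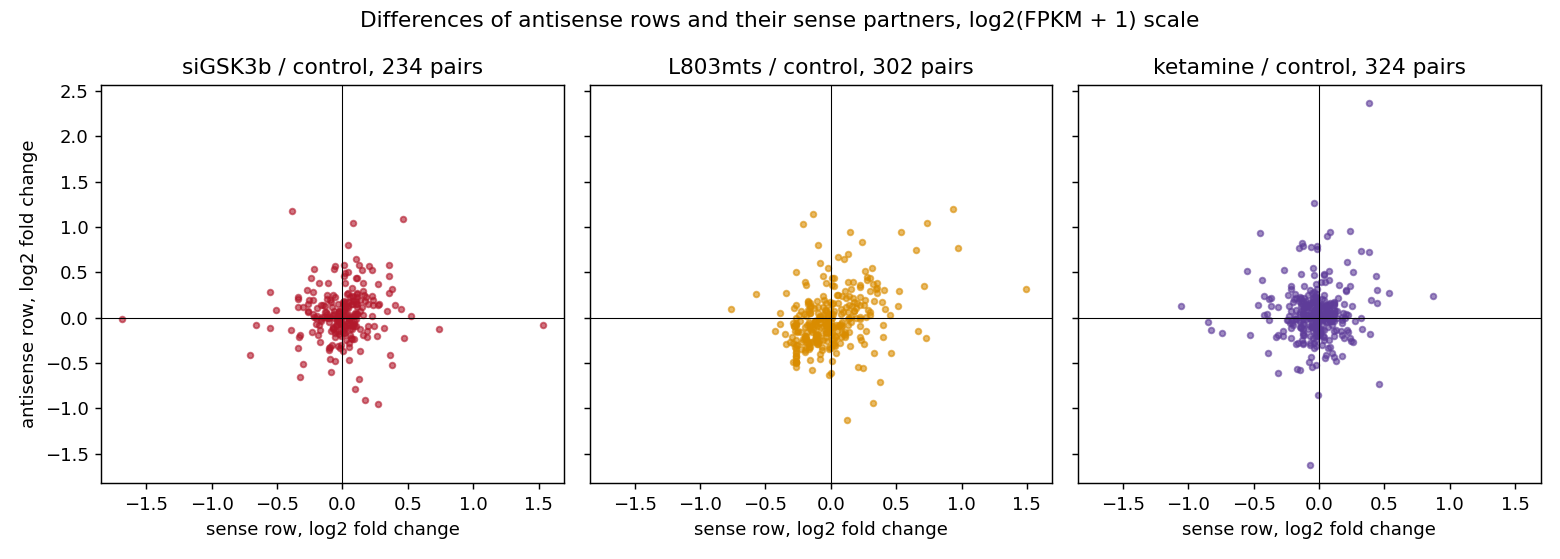
Log2 fold change of the antisense row (y axis) against that of its sense row (x axis), 1 point per pair, for siGSK3b (234 pairs), L803mts (302) and ketamine (324) over control, on the log2(FPKM + 1) scale. Points lie around 0 in both directions, with a Pearson r of 0.06, 0.36 and 0.08.

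Arg2, a mitochondrial arginase chosen after its values were seen, had an antisense row with the same limits in all 3 tables. It had 1.96, 2.13 and 1.90 FPKM in siGSK3b libraries, against 3.02, 3.91 and 2.89 FPKM in control libraries. It had 3.11, 1.95 and 2.32 FPKM in L803mts libraries, against 3.04, 3.97 and 2.94 FPKM in control libraries of that table. It had 1.66, 2.22 and 1.70 FPKM in ketamine libraries, against 3.02, 3.90 and 2.90 FPKM in control libraries of that table. The siGSK3b and ketamine libraries lay below every control library of their own table, and L803mts replicate 1 did not. The log2 fold changes were -0.51 (SE 0.16), -0.33 (SE 0.19) and -0.58 (SE 0.17), with limma adjusted p-values of 0.823, 0.757 and 0.692 after Benjamini-Hochberg adjustment, and all 3 rest on the same control libraries. With 3 libraries against 3, an exact permutation test of a single row cannot give a p below 0.1.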

How the data were processed

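Polyadenylated RNA of mouse hippocampus was sequenced in strand-specific libraries, 3 for each of siGSK3b, L803mts, ketamine and control. The authors deposited 1 table per treatment, which per the file headers holds FPKM for each library and Cuffdiff's p-value, FDR and log2 fold change. Alignment used TopHat2 2.0.9 and quantification Cufflinks and Cuffdiff, whose versions are not given in the sources used here, per the submitters' processing notes, which list the builds NCBIM37 and GRCh37 without a role. The coordinates printed for rows are those of the tables. The tables carry no strand and no counts, so depth is unknown and no counting interval can be given.

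A locus was called tested where its deposited p-value was below 1. The level test was limma (version 3.58.1 under R 4.3.3) on log2(FPKM + 1) of tested loci with its trend option, 3 libraries against 3, with Benjamini-Hochberg adjustment over all tested loci of the table, and calls were made at 0.05. Fold changes on this scale understate those of low rows. The ratio test was the same fit on the difference of log2(FPKM + 1) between a row and its longest protein_coding partner, over all rows with one. Where several rows were equally long, in 4, 6 and 10 pairs of the siGSK3b, L803mts and ketamine tables, 1 was taken by its locus identifier. Both fits were run on simulated data with independent normal errors and a spread set by level. That setting does not cover rows that share reads or rest on 1 library. Host strand and length came from GENCODE M21 by symbol, without coordinates. Sequences are those of RefSeq.

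The genes named are those past a test, the 6 highest and the 5 of highest antisense-to-sense ratio in control libraries, up to 6 with groups that did not overlap, and up to 4 members of each of 6 host lists (imprinted genes, genes with a known antisense RNA, GSK3 and WNT signalling, glutamate and GABA receptors, activity response, transcription factors). Not all of them are printed, and 1 host is not reported here. Members, lists and rules were chosen with earlier results of these data known. Alternatives were another pseudocount, a filter on low values, median centring, no trend, a replicate block, the deposited FDR, another sense partner and leaving out each library.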

Additional observations from a re-analysis of the deposited data

How the results depend on the processing

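The count of antisense rows past an adjusted p of 0.05 in limma was 0 in each comparison, with 19, 26 and 29 rows at an unadjusted p under 0.05 for siGSK3b, L803mts and ketamine. It was also 0 with a pseudocount of 0.1, a mean of at least 1 FPKM, median centring and no intensity trend. By the authors' deposited FDR it was 0, 2 and 3. Leaving out 1 library gave 0 to 0 for siGSK3b, 0 to 0 for L803mts and 0 to 1 for ketamine, where Htr2c passed without control replicate 1 and 7SK without control replicate 2 (log2 fold change 0.97). The same-sign share of ketamine pairs, 47.2%, was 50.6% to 53.7% with 1 library left out, above it each time; the cause was not tested. That of siGSK3b pairs ran from 52.1% to 58.5% and of L803mts pairs from 59.6% to 67.5%. The median log2 fold change ran from -0.01 to 0.07, from -0.10 to -0.01 and from -0.00 to 0.08 for siGSK3b, L803mts and ketamine, and was below 0 with siGSK3b and ketamine only without control replicate 3. Restricting to hosts with up to 3 rows and the medians of 2610005L07Rik were chosen after seeing the data.

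Replicate numbers do not pair the libraries by label, and same-numbered deviations from the group means correlated between -0.16 and 0.19. With a replicate block the count of antisense rows called was 0 in each comparison, and that of the ratio 0. FPKM keep no read numbers, so what depth limits cannot be stated, and 3 libraries a group limit what any test can detect.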
